A study of Psophocarpus tetragonolobus with 12 samples.

Results

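Winged bean (Psophocarpus tetragonolobus) is a tropical legume grown for its pods, seeds, leaves and tubers. The set described here holds 32 of 30392 annotated genes whose transcripts met set limits on change in the pods until Day 37 after anthesis and were lower at Day 45. Within those limits, 26 of the 32 were already lower at Day 37 than at Day 15. The pods came from FP15, a purple-podded line with no treatment other than age, and were sequenced at 4 stages, namely 15, 30, 37 and 45 days after anthesis (Day 15 to Day 45). There were 12 libraries of polyadenylated RNA, 3 for every stage, which kept no strand and came from different individual plants in a growth chamber. The labels name pod tissue, while the methods name pods and seeds. Gene models and coordinates belong to the assembly of Ma3, the green-podded line, so reads of FP15 were placed on another line's sequence.

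The values are the authors' FPKM, the fragments assigned to a gene relative to its length and to all mapped fragments, rounded to whole numbers, with 1 value for each gene and stage. No value per library was analysed, so the spread between plants is unknown, no difference could be tested, and rounding (0.5 FPKM either way) is the only error that could be given. The members were chosen by these same values. A gene was taken where it had at least 10 FPKM at Day 15, Day 30 and Day 37, where the lowest of these 3 values plus 1 was at least 2 times the Day 45 value plus 1, where Day 15 plus 1 was under 2 times Day 37 plus 1, and where neither Day 30 nor Day 37 reached 2 times Day 15 on the same scale. The fall and the earlier course are therefore given as descriptions, and nothing rests on their having met those limits. Of all genes, 10618 had 10 FPKM or more at the first 3 stages, and all 32 members were among them by the rule. At Day 45, 150 of the 10618 (1.41%) were lower than the lowest earlier value by the same 2 times, and of the 9255 genes that also met the limits on the earlier course, 32 (0.346%) were.

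A pod of this kind grows first and then matures, and in maturing green organs the transcripts of growth and photosynthesis commonly decline while those of seed filling and drying rise in the seed. FPKM is a share of the sequenced RNA, so a lower value may come from less of a transcript or from more of others, and from fewer cells of one type as well as from less RNA per cell, which cannot be told apart in whole organs. Only 1 of the 32 members is described in the gene lists of the study (a light-harvesting gene), and the other 31 are therefore given by identifier, position and level, with no role.

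2 genes held most of the transcript abundance of the set. Psote05G0125200 (Chr05.1, 19266124 to 19266819) was listed at 9768 FPKM on Day 15, 13416 on Day 30 and 7942 on Day 37, and at 1492 on Day 45. It was the most abundant of all genes at Day 15 and at Day 30, stood at rank 5 at Day 37 and at rank 28 at Day 45. Its log2(FPKM+1) fell by 2.41 from Day 37 to Day 45, to 18.8% of the Day 37 level. Psote04G0285300 (Chr04.3, 7630009 to 7635382) was at 7704, 8759, 6526 and 972 FPKM in the same order of stages, with ranks of 2, 4, 6 and 46. It kept 14.9% of its Day 37 level at Day 45, and its change of -2.75 on the log2 scale was the largest fall of the set. Both genes were highest at Day 30 and already lower at Day 37 before the steeper fall.

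Among all genes of the table, these 2 also lost the most FPKM between Day 37 and Day 45. Psote05G0125200 lost 6450 and Psote04G0285300 lost 5554, against 2496 for Psote04G0094400, the gene with the next largest loss. The 32 members together summed to 25436, 28171 and 19929 FPKM at the first 3 stages and to 4560 FPKM at Day 45. As a share of the summed FPKM of all genes this was 3.59% (Day 15), 3.62% (Day 30) and 2.5% (Day 37), and then 0.604%. The sum over all genes moved much less, from 795780 at Day 37 to 754576 at Day 45. The members accounted for 15369 of the 103595 FPKM lost by all genes that were lower at Day 45 than at Day 37 (14.8%), and the 2 most abundant genes for 78.1% of the members' part. Without these 2, the other 30 members held 1.12%, 0.770%, 0.686% and 0.278% of the summed FPKM at the 4 stages in order. Their share also dropped at each stage, but most of what they lost before Day 45 was lost between Day 15 and Day 30.

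**Figure D1:**
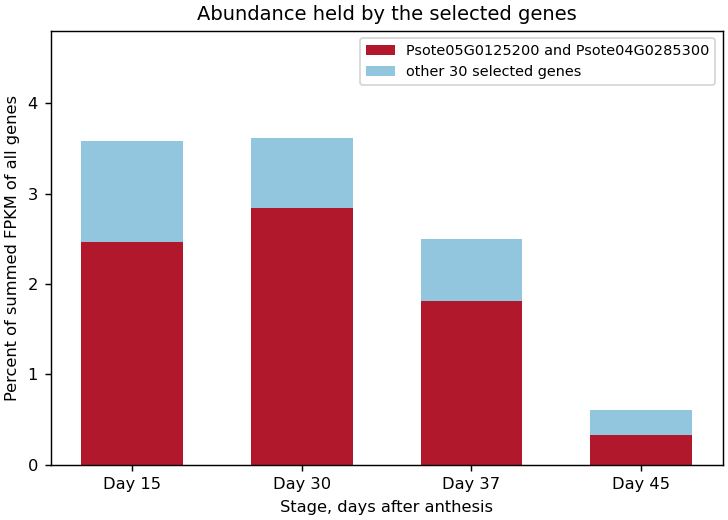
Percent of the summed FPKM of all genes held by the 32 genes at each stage (1 value per stage, no error bars), split into the 2 most abundant genes and the other 30. The whole bar stood at 3.59% at Day 15 and 3.62% at Day 30, and at 0.604% at Day 45, and the 2 genes made up most of each bar.

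5 more members had a mean above 500 FPKM over the first 3 stages. Psote05G0066700 (Chr05.1, 9342757 to 9343110) was at 1700, 979, 1045 and 332 FPKM in the order of stages. Psote01G0179500 (Chr01.1, 28601959 to 28604667) was at 1497, 991, 793 and 301 FPKM. Psote09G0099300 (Chr09.4, 6439860 to 6446927) was at 1347, 901, 833 and 292 FPKM. All 3 of these genes were highest at Day 15 and kept 31.8%, 38.0% and 35.1% of their Day 37 level at Day 45. Psote05G0272600 (Chr05.3, 13338898 to 13340388) was at 1283, 836, 786 and 391 FPKM, and kept 49.7% of its Day 37 level. Psote04G0003000 (Chr04.1, 786767 to 790607) had another course, with 582, 835, 751 and 288 FPKM, and was lowest of the 3 earlier stages at Day 15. Of the 7 genes above 500 FPKM, 6 stood among the 50 most abundant genes at Day 15 and 2 among them at Day 45.

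The members were counted by level among all genes of the same earlier course. Of the 75 genes that met the limits on level and earlier course and averaged 500 FPKM or more, 7 were members (9.33%). The share was 0.525% of 762 genes from 100 to 500 FPKM, 0.146% of 1367 from 50 to 100, 0.301% of 3983 from 20 to 50 and 0.228% of 3068 from 10 to 20. These shares describe the selected genes, as level and fall both entered the rule. The depth of the fall also differed by level. From Day 37 to Day 45 the median log2 change was -1.51 for the 11 members above 100 FPKM and -1.07 for the 21 below. These values entered the rule as well, so the difference is a description only. On log2(FPKM+1) the change of a gene with few FPKM is understated.

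**Figure D2:**
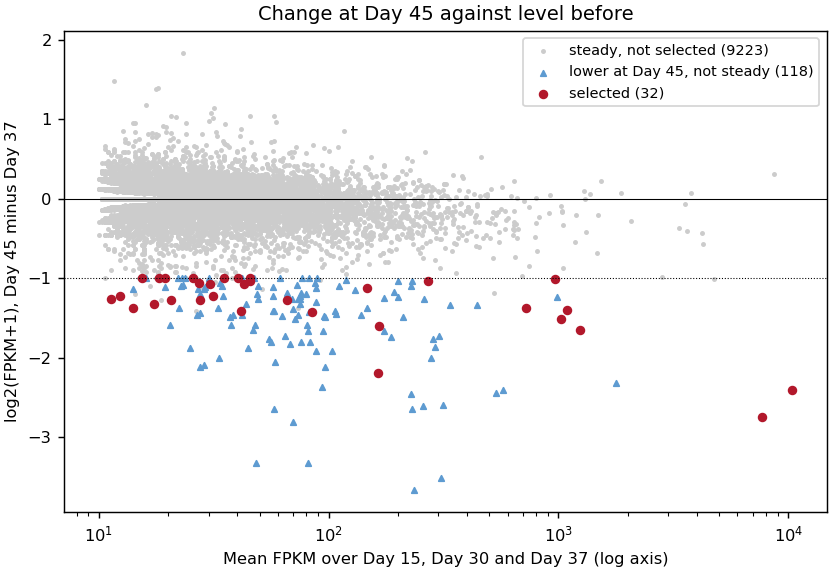
Change of log2(FPKM+1) from Day 37 to Day 45 against the mean FPKM of the first 3 stages (log axis), each point a gene, with the 32 selected genes in red, the 118 genes that fell as much but were not steady before in blue and the other steady genes in grey. The dotted line marks a change of -1, and the 2 red points at the right are Psote05G0125200 (-2.41) and Psote04G0285300 (-2.75).

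4 members averaged between 100 and 500 FPKM. Psote03G0131300 (Chr03.1, 25224480 to 25225997) is the one member that the study annotates, as a match to Arabidopsis LHCB6 or CP24, a minor chlorophyll-binding antenna protein of photosystem II that links the light-harvesting complexes to the reaction centre. It was at 283, 267, 264 and 128 FPKM at the 4 stages, so the 3 earlier values lay within 1.07 times of each other while Day 45 was at 48.5% of Day 37. It appears among the 58 candidate genes of qSSP-1, a seed protein locus of the study. Its change of -1.04 on the log2 scale lay close to the limit, and with every stage rescaled to the same sum it was -0.96 and the gene was no longer a member. Psote01G0005800 (Chr01.1, 802836 to 803843) was at 185, 179, 133 and 43 FPKM. Psote09G0065700 (Chr09.4, 7469 to 7741) was at 138, 141, 213 and 46 FPKM. It was the one member that drifted up before Day 45, and it fell by 2.19 on the log2 scale, the third largest fall of the set. Psote02G0079400 (Chr02.1, 26697709 to 26698658) was at 165, 179, 97 and 44 FPKM, and had lost much of its abundance by Day 37.

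No other listed light-harvesting or photosystem gene was available for comparison, since Psote03G0131300 was the only gene whose description in the study's lists named either. Whether green tissue as a whole was declining at Day 45 was therefore not tested. The other listed genes described as chloroplast, lipid-transfer or 2S albumin superfamily were not members. Psote03G0131000, a chloroplast-targeted copper chaperone match 3 gene models away from the LHCB6 match, was listed at 0 at all stages. Of the lipid-transfer and 2S albumin superfamily genes, small cysteine-rich proteins that bind lipids or store nitrogen in seeds, Psote03G0131200, the model next to the LHCB6 match, was at 71, 33, 33 and 31 FPKM. Psote03G0116100 came nearest to the rule with 73, 42, 36 and 18 FPKM. Psote06G0099600 stayed high at Day 45, with 382, 853, 840 and 786 FPKM.

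The remaining 21 members averaged below 100 FPKM, 19 of them below 50 and 7 below 20. Psote08G0132300 was at 90, 107, 58 and 21 FPKM and Psote01G0013300 at 96, 51, 50 and 20 FPKM. Psote03G0348300 was at 38, 39, 47 and 17 FPKM, and fell by 1.42 on the log2 scale after a slight rise. Psote06G0012900 was at 17, 13, 12 and 4 FPKM, and fell by 1.38. Psote04G0195900 showed the least variation before Day 45 of all members, with 27, 28, 28 and 11 FPKM. Psote05G0008100, the least abundant member, was at 12, 11, 11 and 4 FPKM. No member was listed at 0 at Day 45, when the lowest was 4 FPKM, and 7 were at 6 FPKM or less. Members therefore kept between 14.9% and 49.7% of their Day 37 level, with a median of 39.6%.

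The change from Day 37 to Day 45 had a median of -1.24 over the 32 members on the log2 scale (quartiles -1.40 and -1.03, range -2.75 to -1), against 0.00 over the 10618 genes above the level limit. A fall of more than 2 on this scale was reached by 3 members, namely Psote04G0285300, Psote05G0125200 and Psote09G0065700, and a fall of 1.5 or more by 6, which adds Psote05G0066700, Psote01G0005800 and Psote09G0099300. These 6 all averaged more than 100 FPKM. At the other end, 8 members stood exactly at the limit of 2 times. Just inside it were Psote04G0160000 (55, 49, 33 and 16 FPKM), Psote05G0347500 (50, 40, 31 and 15) and Psote02G0014300 (47, 33, 25 and 12). Just outside were Psote05G0193200 with 3033, 2978, 2496 and 1258 FPKM and a ratio of 1.98, Psote01G0218000 with 727, 947, 398 and 202 and a ratio of 1.97, and Psote06G0141600 with 134, 113, 109 and 56 and a ratio of 1.93. Psote05G0193200 would have been the third most abundant member.

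**Figure D3:**
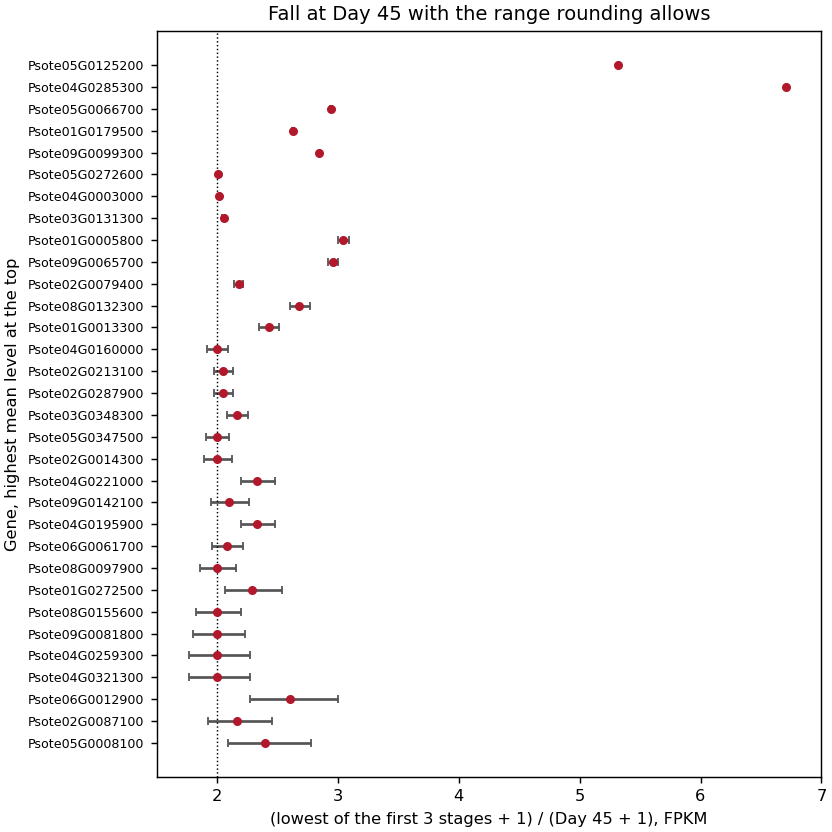
Ratio of the lowest earlier value plus 1 to the Day 45 value plus 1 for each of the 32 genes, ordered by mean level over the first 3 stages, with bars for the range that rounding to whole FPKM allows (0.5 either way on both values). The dotted line is the limit of 2, and the bars of 13 genes, all averaging below 50 FPKM, reach below it.

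Rounding alone could have decided 13 of the 32 memberships. For the other 19, the unrounded values would meet every limit even where rounding went against them. Psote05G0125200 had a ratio of 5.32 and Psote04G0285300 of 6.71, and rounding allowed only 5.318 to 5.322 and 6.704 to 6.712. Psote05G0272600 was close to the limit at 2.01 as well, but its high level left it a range of 2.004 to 2.011, whereas Psote04G0321300, at 19, 16, 11 and 5 FPKM, had a range of 1.77 to 2.27.

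The word steady holds only within the limits of the rule. From Day 15 to Day 37, 26 of the 32 members declined and 6 rose, with a median change of -0.49 on the log2 scale and a range of -0.93 to 0.62, against a median of 0.05 over the 9255 genes that met the same limits. A flat course, in which the highest of the first 3 values plus 1 was no more than 1.23 times the lowest plus 1, was found in 5 members, the LHCB6 match and Psote03G0348300, Psote04G0195900, Psote02G0087100 (12, 12, 13 and 5 FPKM) and Psote05G0008100. A steady decline from Day 15 over Day 30 to Day 37 was found in 14, a peak at Day 30 in 9, a dip at Day 30 in 3 and a rise in 1. The peak at Day 30 included both of the most abundant genes. Day 37 was the lowest of the first 3 stages, ties included, in 23 members, so that in most of them Day 45 continued a decline that had begun.

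**Figure D4:**
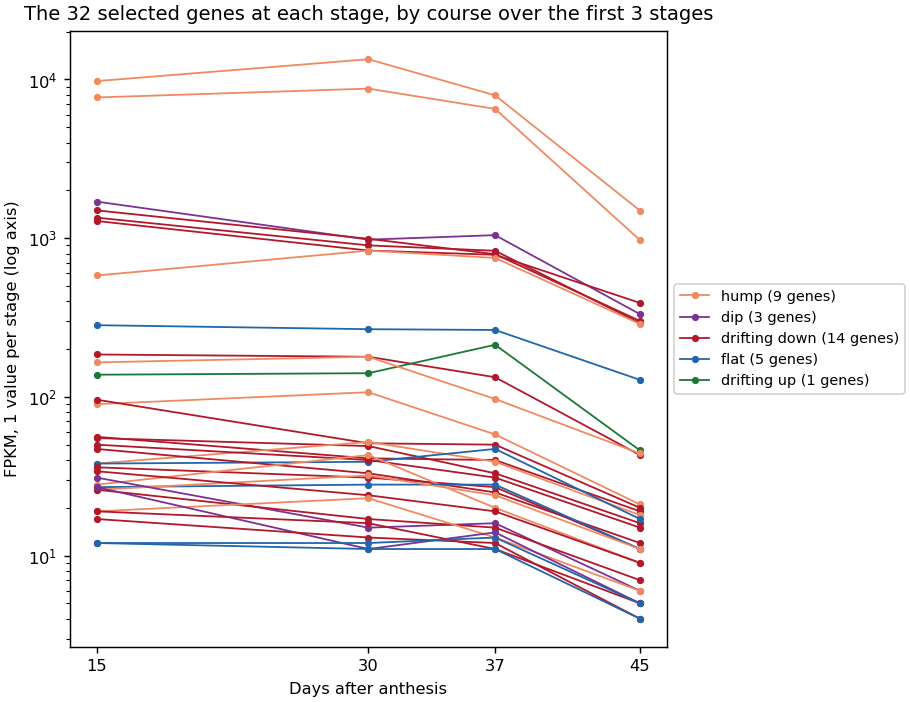
FPKM of the 32 genes (log axis) against days after anthesis, each line a gene with 1 value per stage, coloured by course over the first 3 stages. The 2 upper lines end at 1492 and 972 FPKM, and every line steps down from Day 37 to Day 45, as the rule requires.

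The rule left the step from Day 15 down to Day 30 and the step from Day 30 to Day 37 without a limit of their own. 3 members varied by 2 times or more within the first 3 stages, on FPKM plus 1. Psote04G0259300 was at 27, 11, 14 and 5 FPKM, and in FPKM had lost more between Day 15 and Day 30 than it lost later. On the log2 scale it changed by -1.22 from Day 15 to Day 30 and by -1.32 from Day 37 to Day 45. Psote01G0272500 was at 31, 15, 16 and 6 FPKM. Psote09G0142100 was at 28, 43, 20 and 9 FPKM. For these 3 genes the label steady does not describe the data. The other 29 stayed under 2 times, and 13 of the 32 under 1.5 times.

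Other genes fell as far at Day 45 without meeting the limits on the earlier course. Of 118 such genes, 115 had lost 2 times or more between Day 15 and Day 37, and 3 had risen from Day 15 by 2 times or more. The 115 had medians of 135, 41, 24 and 8 FPKM at the 4 stages, against 48.5, 42, 36 and 16.5 FPKM for the 32 members. Their summed FPKM was 31322 at Day 15 and 4737 at Day 37, while that of the members was 25436 and 19929. Of the 9255 genes that met the limits of the first 3 stages, 11 were at 2 times or more of the highest earlier value at Day 45. The 32 members were 0.346% of the same 9255. Both counts belong to the listed values, and with every stage rescaled to the same sum 16 genes met the rule. Genes that rose were not counted on that scale.

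No member had another member among the 10 gene models on either side, and the members were spread over 15 scaffolds. With 32 members among 30392 genes, few would lie so close even if placed at random, so this is no trait of the set. Per chromosome number in the scaffold names, 7 were on 4, 5 each on 2 and 5, 4 each on 1 and 9, 3 on 8, 2 each on 3 and 6 and 0 on 7. As a share of the genes that met the limits of the first 3 stages, this ranged from 0% of 780 on chromosome 7 to 0.818% of 489 on chromosome 9. The share over all 9255 such genes was 0.346%, and the members per chromosome are too few to set these shares apart. The genes spanned a median of 1500 bases from start to end (quartiles 845 and 3822, range 273 to 7612), against 3970 (quartiles 1983 and 6841) for the 9223 genes that met the same limits and did not fall by 2 times. Spans under 1000 bases were found in 10 members (31.2%), against 12.6% of those genes and 22.0% of the 118 genes that fell without a steady course. Over all 30392 genes the share was 21.1% and the median span 2904 bases. The groups also differed in level, with a median of 42.2 FPKM over the first 3 stages for the members and 27 for the 9223 genes. Introns are included in these spans, and transcript lengths were not analysed here.

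Psote04G0285300 was an isolated peak of expression. The gene models next to it, Psote04G0285200 and Psote04G0285400, were listed at 3, 1, 0 and 0 FPKM and at 0 throughout. Among the neighbours, Psote04G0285200, Psote04G0285500 (1, 1, 0 and 0 FPKM) and Psote04G0285600 (2, 4, 0 and 0 FPKM) are in the study's list of albumin genes, which encode water-soluble seed storage proteins, whereas Psote04G0285300 is in none of the annotated lists used here. Psote05G0125200 stood 38827 bases from Psote05G0125300 (97, 9, 3 and 0 FPKM). The next model, Psote05G0125400 (Chr05.1, 19416067 to 19416466), was also abundant at Day 15 but fell much earlier, with 3981, 949, 417 and 83 FPKM.

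The genes next to members were also read at Day 45. Of the 64 flanking gene models, 29 had 10 FPKM or more at the first 3 stages, and in 11 of these (37.9%) Day 37 plus 1 was at least 1.5 times Day 45 plus 1, against 5.42% of the 10618 genes at that level. Leaving out 3 that overlap a member left 8 of 26 (30.8%). Some of these 8 still lay close to a member, at 70, 331, 699 and 1105 bases, and may share a transcript with it, which was not tested. Psote05G0066600 (16, 32, 43 and 28 FPKM) and Psote05G0066800 (68, 202, 222 and 88), also among the 8, flank the same member, Psote05G0066700. Like Psote08G0098000 (19, 51, 40 and 20), they rose after Day 15 and were still above their Day 15 level at Day 45. Unlike the members, these genes did not fall below all earlier stages. The rest of the 8 were lower at Day 45 than at every earlier stage. By the wider measure of all flanking models at 1 FPKM or more at Day 37 or Day 45, 0 of 48 rose by 2 times. The share of all genes that rose is not given here. By the same measure, 6 of 48 (12.5%) fell by 2 times, against 5.43% of 21205 genes. Of these 6, 4 were at 3 FPKM or less at Day 37, where rounding can make such a fall. Among flanking models at 10 FPKM or more at Day 37, 2 of 31 (6.45%) fell by 2 times, against 2% of 12121 genes at that level. These flanking genes were examined after their values had been seen, and no test was run on them.

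In several cases the 2 models ran in parallel at every stage. Psote01G0179600 (Chr01.1, 28603107 to 28603819) lies inside the span of Psote01G0179500 and was at 3931, 2629, 1951 and 982 FPKM. Psote04G0003100 (Chr04.1, 789446 to 790377) lies inside that of Psote04G0003000 and was at 438, 587, 548 and 240 FPKM, with the same peak at Day 30. From Day 37 to Day 45 the inner models changed by -0.99 and -1.19 on the log2 scale, and the members around them by -1.39 and -1.38. Psote02G0213100 (56, 41, 40 and 19 FPKM) lies in turn inside Psote02G0213000 (78, 52, 41 and 23). Since the libraries kept no strand, the strand of reads from bases that 2 models share is unknown, and how the counting assigned them was not examined. Psote04G0159900 (52, 49, 29 and 16 FPKM) ends 70 bases from Psote04G0160000 and matched it at 2 of the 4 stages. Psote06G0061600 (21, 26, 17 and 9 FPKM) lies 331 bases from Psote06G0061700 (26, 32, 24 and 11). Whether these adjoining models are 1 transcript or 2 was not tested.

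**Figure D5:**
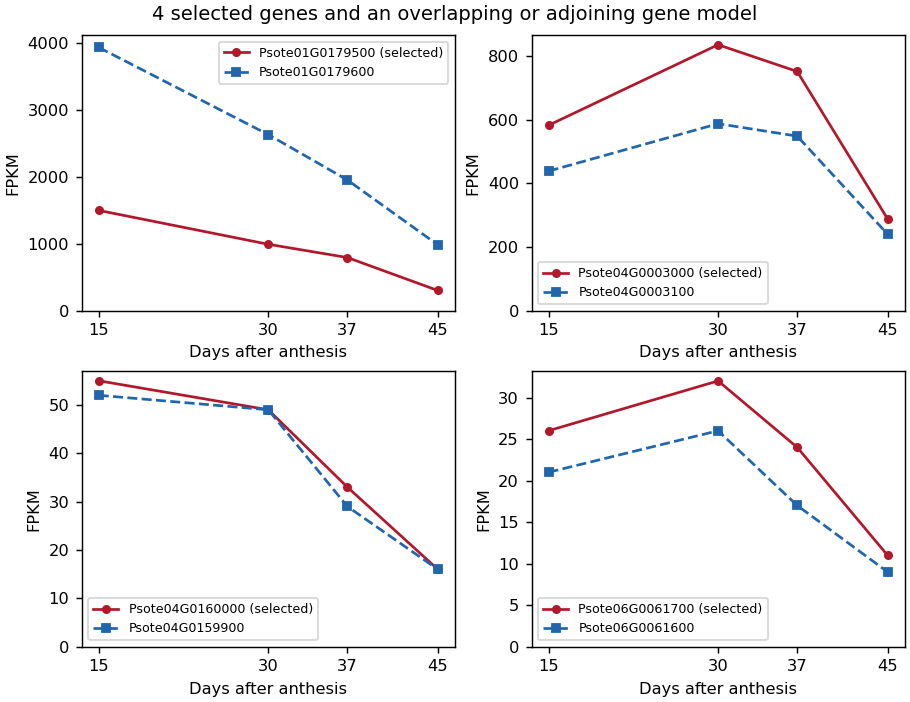
FPKM by days after anthesis for 4 selected genes (red, solid) and an overlapping or adjoining gene model (blue, dashed), 1 value per stage. In the upper panels the blue model lies inside the span of the red one, and in the lower panels the models are 70 and 331 bases apart, and each pair peaked at the same stage.

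In all, 7 members overlapped another annotated model. Besides the 3 already given, Psote09G0099300 lies within Psote09G0099200, which was at 6, 6, 5 and 5 FPKM and did not follow it. The models that overlap Psote03G0131300, Psote01G0013300 and Psote02G0087100 were at 1 FPKM or less at all stages. Leaving out the 7 gave a median change of -1.22 from Day 37 to Day 45, against -1.24 over all members.

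For 6 members, the part of the study's list of duplicated genes that was used here names a dispersed copy elsewhere in the genome. The list was held only in part, so further copies may exist. The copy of Psote01G0005800, Psote04G0141500, was at 125, 42, 46 and 23 FPKM, and differed from it by falling at Day 30. The copy of Psote01G0272500, Psote03G0176100, peaked at Day 30 with 33, 56, 48 and 32 FPKM. Psote05G0272600 had 2 listed copies, one at 70, 26, 22 and 18 FPKM (Psote01G0262900) and one listed at 0 throughout (Psote01G0066900). The copies of Psote01G0179500, Psote01G0013300 and Psote09G0065700 were at 4, 16 and 0 FPKM at Day 15 and at 2 FPKM or less at Day 45. None of these 7 copies met the rule, which only 0.301% of the 10618 genes at 10 FPKM or more did, so this is no trait of the copies. Psote01G0066900 and the copies of Psote01G0179500, Psote01G0013300 and Psote09G0065700 were below the minimum of 10 FPKM and could not meet it. At all stages, 6 of the 7 were below their member, which had been chosen at 10 FPKM or more. How the counting treated reads that fit both copies was not examined.

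The study's own gene lists were then searched for members. Of 423 listed genes, 147 had 10 FPKM or more at the first 3 stages, 103 also met the limits on the earlier course, and 1, the LHCB6 match, was a member. This was 0.680% of the 147 and 0.971% of the 103, against 0.301% of the 10618 genes at that level and 0.346% of the 9255 that met the limits, and 1 gene is too few to set these shares apart. None of the 89 storage protein and associated genes and none of the 279 anthocyanin pathway genes was a member. Only 14 and 105 of them reached that level, and at a share of 0.301% fewer than 1 member would fall among either number. A fall by 2 times below the lowest earlier value was seen in 6 of the 147 (4.08%), against 1.41% of the 10618. Besides the LHCB6 match, the other 5 had already declined by Day 37. The 11S globulin gene Psote03G0078700, which encodes a legumin storage protein, was at 148, 68, 48 and 12 FPKM. Psote03G0189000 (F3H), a flavanone hydroxylase match of the flavonoid pathway, was at 129, 75, 42 and 15 FPKM. Psote01G0255900 (LDOX, also ANS), a match to the enzyme that makes anthocyanidins, was at 266, 226, 110 and 53 FPKM. Its largest loss in FPKM lay between Day 30 and Day 37, and from Day 37 to Day 45 it changed by -1.04 on the log2 scale. Psote03G0138100 (UGT78D2), a flavonoid glucosyltransferase match, was at 110, 73, 35 and 16 FPKM. Psote08G0201800, a BZIP44 transcription factor match, was at 98, 27, 17 and 8 FPKM.

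A further 3 listed genes missed the fall by little. Psote05G0117300, a match to the transcription factor CIB3, was at 28, 21, 16 and 8 FPKM, a ratio of 1.89. Psote03G0138000, a glutamine amidotransferase-like match among the qSSP-1 candidates, was at 19, 16, 10 and 5 FPKM, a ratio of 1.83. Psote03G0037900, a match to the kinase YDA, was at 11, 17, 15 and 6 FPKM, a ratio of 1.71. The 2 genes that the study used as references in RT-qPCR also stood outside the set. PtELFa (Psote09G0074300) was at 707, 608, 556 and 570 FPKM and so changed little at Day 45. PtTUB6 (Psote05G0184000) was at 354, 656, 549 and 326 FPKM, lower at Day 45 than at Day 37 by 0.75 on the log2 scale.

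How firmly a gene belonged to the set differed among members and did not follow level alone. Rescaling the stages to the same sum, by the median of ratios or to the same distribution left 16, 23 and 19 genes meeting the rule, and 13 of the 32 members met it under all 3. With the least favourable rounding as well, 12 remained, 6 of the 11 members above 100 FPKM and 6 of the 21 below. Of the 7 members above 500 FPKM, 3 remained, namely Psote04G0285300, Psote09G0099300 and Psote04G0003000. Those below 100 FPKM included Psote05G0008100, the least abundant member. Psote05G0125200 met the rule at the same sum and by the median of ratios, but not on the quantile scale. There it stood at 14235, 14235, 6070 and 1532, which is a fall of more than 2 times before Day 45. It ranked first at Day 15 and at Day 30, so that scaling gave it the same value at both. Its listed values at the first 3 stages were 9768, 13416 and 7942 FPKM. From Day 37 to Day 45 it fell by 1.99 on the quantile scale, in log2 units.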

How the data were processed

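The 12 libraries were assigned to 4 stages from the labels. In the submitters' processing notes, reads were trimmed with fastp, mapped with HISAT2 2.0.5 and counted per gene with featureCounts 1.5.0-p3. The table that the authors deposited holds whole-number FPKM, handled as a score, with 1 value per gene and stage and 0 columns of other samples. The step that turned 3 libraries into 1 value is not given in the sources, and depth per library was not analysed here. Members, gene lists and comparisons were chosen with earlier results of these data known. The rule and ratios were computed on FPKM plus 1, and ranks and sums on FPKM, with Python 3.11.15, numpy 2.4.6 and pandas 2.3.3. Only the limit on the fall was checked, on genes already steady whose Day 45 values were simulated. With 1 value per stage no test could be fitted, and no SD, n or p is given. Named genes are every member in a list of the study, the 10 members with the highest level and the 10 with the deepest fall, the 3 genes nearest to each side of the limit and listed genes that missed 1 other condition. Of 107 such listed genes, those that fell or came near to it are named. Other members, flanking genes and copies were named after their values were seen. A gene table of a different assembly matched no identifier and was left out.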

Additional observations from a re-analysis of the deposited data

How the results depend on the processing

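The number of members was 32, and it was 57 with a minimum of 5 FPKM, 218 with none, 16 with a pseudocount of 5, 194 for a fall of 1.5 times, 3 for a fall of 3 times and 15 with the limits on Day 15 against the later stages set at 1.5 times. Scaling all stages to the same sum gave 16, against 19 with quantile normalization and 19 with the least favourable unrounded values. A minimum of 20 FPKM gave 23, a pseudocount of 0.1 gave 32, the median of ratios gave 23, and a limit of 2 times on every pair of the first 3 stages, added after seeing the data, gave 29. The median log2 change from Day 37 to Day 45 was -1.24, and -0.97 with a pseudocount of 5. The members' share of the summed FPKM at Day 45 was 0.604%, 0.482% for the members found at the same sum, and 0.278% without the 2 most abundant genes, a setting added after seeing the data. None of the 18 named genes that the alternatives covered changed direction in any of 90 recomputed values. These genes were chosen for a fall of 2 times or near it, and no value shifted up by more than 0.43 on the log2 scale. The absence of reversals therefore followed from the choice of genes and is no support for the falls. Leaving out libraries could not be run, since the table holds 1 value per stage. No paired analysis was possible because the columns carry no replicate number. Rounding limits members below 50 FPKM, and for all members the variation among plants is not known.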
